A study of Mus musculus with 6 samples.

Results

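The actin and tropomyosin genes of C2C12 cells were followed from myoblasts to myotubes. The 10 genes were chosen by symbol, as the 6 actins *Acta1*, *Acta2*, *Actb*, *Actc1*, *Actg1* and *Actg2* and the 4 tropomyosins *Tpm1*, *Tpm2*, *Tpm3* and *Tpm4*, out of 54525 gene rows in the count tables. C2C12 is a long-established line of mouse myoblasts, which fuse into multinucleated myotubes upon differentiation. RNA-seq was performed on 3 samples of wild-type, untreated C2C12 myoblasts (day 0, D0) and 3 samples of wild-type, untreated C2C12 cells after 5 days of differentiation (D5). Myoblasts were grown with fetal bovine serum and differentiated with less serum, from horse, so the change of medium and differentiation cannot be told apart. Both groups came from the same cell line, whole cultures were lysed, and no animal was used.

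Actin filaments are built from near-identical proteins whose genes differ in where they are active. *Acta1* and *Actc1* encode the skeletal and cardiac alpha-actins of striated muscle thin filaments, *Acta2* and *Actg2* encode the smooth muscle actins, and *Actb* and *Actg1* encode the cytoplasmic actins of all cells. Tropomyosins are coiled-coil proteins that lie along actin filaments, where in striated muscle they hold troponin and govern the access of myosin. *Tpm1*, *Tpm2* and *Tpm3* each give rise to muscle and cytoskeletal products by alternative promoters and splicing, and *Tpm4* mainly to cytoskeletal ones. Embryonic skeletal muscle is known to use cardiac and smooth muscle actins before the skeletal actin dominates.

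The gene counts of a library summed to between 36555048 and 40895840 at D0 and between 25449759 and 25811300 at D5, of which the 10 genes took from 1.69% to 1.74% at D0 and from 1.17% to 1.21% at D5. The ERCC spike-ins, synthetic RNAs of known amount, took from 0.720% to 2.09% of all counts in a library. Levels are given as CPM (counts per 1000000 counts on genes, with TMM scaling by edgeR). Levels of different genes are compared only as TPM (transcripts per 1000000 transcripts), which divides counts by exonic length. All 10 genes passed the filter on low counts and were among the 16290 genes tested. The test was the quasi-likelihood test of edgeR, Benjamini-Hochberg adjustment ran over all 16290 genes, and a gene was called at an adjusted p under 0.05. A value written with ± is the mean and the SD over the 3 libraries of a group. The labels were checked with 9 differentiation markers, *Myog*, *Mymk*, *Mymx*, *Myh3*, *Ckm*, *Myod1*, *Myf5*, *Pax7* and *Mki67*. Of these 5 rose at D5 and 4 fell (55.6% and 44.4%, against 42.2% and 40.8% of all genes tested). The counts alone do not check the labels, so levels are given. *Myh3* rose from 1.70 ± 0.362 to 4702 ± 174 CPM, *Mymk* from 1.57 ± 0.350 to 818 ± 36.0 CPM and *Ckm* from 2.09 ± 0.507 to 653 ± 22.4 CPM. The myogenic factor *Myog*, named outside the naming rule given below, rose from 2.76 ± 0.367 to 515 ± 3.25 CPM. The proliferation marker *Mki67* fell from 704 ± 9.93 to 20.4 ± 2.01 CPM (n = 3 each).

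Promoter sequences are shown for 4 actin genes, because actin genes are textbook targets of serum response factor (SRF), whose binding motif is the CArG box, and because *Acta1* and *Actc1* rose whereas *Actg1* and *Acta2* fell in the counts below. RefSeq promoter windows of GRCm38.p6, from 250 bases before to 50 bases after an annotated start, were found for 8 of the 10 genes, in 9 windows. No window was found for *Actb* and *Actg2*. The lines give the 150 bases before the start, 5′ to 3′ on the strand of the gene, with exact matches to the CArG box in capitals.
Acta1 promoter, chr8:123894776-123894925, minus strand: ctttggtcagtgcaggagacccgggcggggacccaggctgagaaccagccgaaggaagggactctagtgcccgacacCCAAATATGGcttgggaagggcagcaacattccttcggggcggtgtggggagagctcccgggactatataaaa
Actc1 promoter, chr2:114052876-114053025, minus strand: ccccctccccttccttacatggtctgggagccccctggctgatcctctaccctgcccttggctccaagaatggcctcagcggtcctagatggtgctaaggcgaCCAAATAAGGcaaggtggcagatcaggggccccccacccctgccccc
Actg1 promoter, chr11:120348496-120348645, minus strand: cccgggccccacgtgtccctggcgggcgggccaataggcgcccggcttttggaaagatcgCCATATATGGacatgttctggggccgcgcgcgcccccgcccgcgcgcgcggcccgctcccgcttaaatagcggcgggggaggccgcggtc
Acta2 promoter, chr19:34255374-34255523, minus strand: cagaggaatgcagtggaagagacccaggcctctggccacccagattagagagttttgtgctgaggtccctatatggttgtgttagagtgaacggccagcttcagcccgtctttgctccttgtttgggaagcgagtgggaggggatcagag

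The CArG box was taken as CC, then 6 letters that are each A or T, then GG. An exact match was found on either strand in 3 of the 9 windows, and in 535 of all 32851 windows of the same length (1.63%). Near matches were not counted, such as ccctatatgg and ccttgtttgg in the *Acta2* window and ccctatatgg in that of *Actc1*. The box CCAAATATGG began at position -73 from the *Acta1* start, CCAAATAAGG at position -47 from the *Actc1* start and CCATATATGG at position -90 from the *Actg1* start. The 3 genes with an exact match were both striated actins, which rose, and a cytoplasmic actin, which fell. The letters TATAAA, present in 13.6% of all windows, were found in the 300-base windows of *Acta1* and *Actc1* and in no window of the other 6 genes. In *Actc1* they lay after the annotated start, outside the bases shown, and in *Acta1* just before it. All positions here are counted from the annotated start, and whether transcription began there was not tested. The E-box CANNTG, a motif of myogenic factors, occurred in each of the 9 windows and in 72.3% of all windows. The motif CATTCC, the core of the MCAT element, occurred in the windows of *Acta1*, *Acta2* and *Tpm1* and in 14.7% of all windows. No match overlapped a match of another motif in these 9 windows. A match describes the letters only and no binding was measured.

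Both striated muscle actins rose, all 4 other actins fell, and the tropomyosins divided into *Tpm1* and *Tpm2*, which rose, *Tpm4*, which fell, and *Tpm3*, which was not called. By edgeR's test 4 of the 10 genes were higher at D5, against 42.2% of all genes tested, and 5 were lower, against 40.8%. All 3 D5 libraries lay above all 3 D0 libraries for the 4 genes that rose (42.2% of all genes tested) and below them for the 5 that fell (41.1%). The shares of these genes called in each direction were therefore near those of all genes, and what follows concerns which of them moved and by how much. These were bulk cultures, in which fewer cells of a type and less RNA per cell cannot be told apart.

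**Figure D1:**
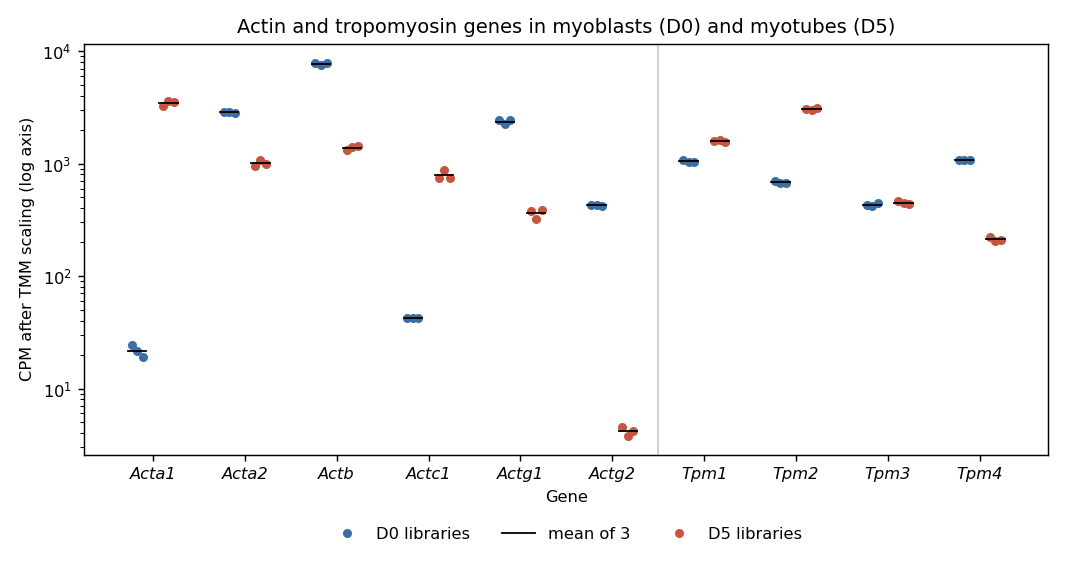
CPM after TMM scaling (log axis) of the 6 actin and 4 tropomyosin genes in the 3 D0 libraries (blue points) and the 3 D5 libraries (red points), with the mean of 3 as a black line. The groups overlap only for *Tpm3*, and *Acta1* and *Actg2* show the widest gaps, from 21.6 to 3451 CPM and from 424 to 4.18 CPM.

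*Acta1* (ENSMUSG00000031972.5, chromosome 8 of GRCm38 from 123891769 to 123894751, minus strand), the actin of adult skeletal muscle, had 908, 906 and 768 counts at D0 against 81774, 87972 and 87759 counts at D5. Every D5 library thus held many times the count of any D0 library, although the D5 libraries were shallower. The mean level rose from 21.6 ± 2.58 CPM to 3451 ± 170 CPM (n = 3 each), a 160-fold rise (log2 fold change 7.32, standard error 0.060, edgeR adjusted p = 5.4e-38). In TPM, *Acta1* moved from rank 3427 at D0 to rank 9 at D5 among the 54488 gene rows with a length.

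*Actc1* (ENSMUSG00000068614.7, chromosome 2 from 114047282 to 114053548, minus strand), the cardiac alpha-actin, had 1591, 1779 and 1690 counts at D0 and 18838, 21462 and 18529 counts at D5. The 3 myoblast libraries were nearly alike in CPM, and D5 replicate 2 was the highest of the myotube libraries. The level rose 18.7-fold, from 42.3 ± 0.258 CPM to 789 ± 71.4 CPM (n = 3 each, log2 fold change 4.22, standard error 0.049, edgeR adjusted p = 4.3e-34). The rise of *Acta1* was the larger of the pair. At D0 *Actc1* stood 1.86-fold above *Acta1* in TPM, and at D5 *Acta1* stood 4.62-fold above *Actc1*. The log2 ratio of *Actc1* to *Acta1* within a library was 0.90 ± 0.164 at D0 and -2.21 ± 0.105 at D5 (n = 3 each), and the difference of -3.11 had an exact permutation p of 0.1, the smallest that 3 libraries against 3 allow.

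The smooth muscle actins were abundant in myoblasts. *Acta2* (ENSMUSG00000035783.8, chromosome 19 from 34241090 to 34255590, minus strand), the vascular smooth muscle alpha-actin, had 107637, 122154 and 112508 counts at D0 and 24080, 26754 and 24660 at D5. It was rank 11 of all genes by TPM at D0. Its level fell from 2858 ± 57.4 CPM to 1012 ± 65.9 CPM (n = 3 each), to 35.4% of the myoblast level (log2 fold change -1.50, standard error 0.039, edgeR adjusted p = 3.4e-25). *Acta2* thus remained rank 57 by TPM in myotubes, the smallest fall among the 4 actins that fell.

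*Actg2* (ENSMUSG00000059430.14, chromosome 6 from 83512905 to 83536265, minus strand), the enteric smooth muscle gamma-actin, had 15887, 18065 and 16875 counts at D0 and only 114, 93 and 105 counts at D5. The libraries of a group were close to each other, and the groups were far apart. The level dropped from 424 ± 5.31 CPM to 4.18 ± 0.384 CPM (n = 3 each), which is 101-fold lower (log2 fold change -6.66, standard error 0.054, edgeR adjusted p = 4.2e-38). By TPM it went from rank 108 to rank 9315. The 2 smooth muscle actins therefore fell by different amounts, *Actg2* to 0.986% and *Acta2* to 35.4% of their myoblast levels.

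*Actb* (ENSMUSG00000029580.14, chromosome 5 from 142903115 to 142906754, minus strand), the cytoplasmic beta-actin often used to normalise expression, had 292350, 319011 and 318139 counts at D0 and 33493, 34297 and 35549 counts at D5. It was rank 3 of all genes by TPM in myoblasts. Its level fell from 7764 ± 160 CPM to 1385 ± 48.1 CPM (n = 3 each), which is 5.61-fold lower (log2 fold change -2.49, standard error 0.037, edgeR adjusted p = 1.7e-31). *Actb* kept a high level in myotubes, at rank 49 by TPM.

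*Actg1* (ENSMUSG00000062825.15, chromosome 11 from 120345690 to 120348542, minus strand), the cytoplasmic gamma-actin, had 91093, 93649 and 98072 counts at D0 and 9525, 7987 and 9537 at D5. All 3 D5 libraries lay far below the D0 libraries, with D5 replicate 2 the lowest. The level fell from 2365 ± 119 CPM to 362 ± 33.1 CPM (n = 3 each), which is 6.53-fold lower (log2 fold change -2.71, standard error 0.048, edgeR adjusted p = 1.8e-29). *Actg1* and *Actb* fell by similar amounts. The log2 ratio of *Actg1* to *Actb* was -1.70 ± 0.046 at D0 and -1.93 ± 0.148 at D5 (n = 3 each), a difference of -0.22 (exact permutation p = 0.1). Of the 50-base stretches of *Actg1* transcripts, 37.4% also occur in another gene, so its counts depend on how reads with several matches were handled, which the sources used here do not give. For *Actb* this share was 9.12%, for *Acta1* 2.02%, for *Acta2* 0.326%, and for *Actc1* and *Actg2* 0%. Stretches shared with another of the 10 genes were at most 1.83% of a gene's total, in *Acta1*.

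The composition of the actin pool was read within each library, so that it does not depend on library scaling. The striated muscle actins *Acta1* and *Actc1* made up 0.771%, 0.757% and 0.704% of the summed TPM of the 6 actins in the D0 libraries and 70.5%, 71.5% and 70.9% in the D5 libraries. Their mean share was 0.744 ± 0.035% at D0 and 71.0 ± 0.521% at D5 (n = 3 each, not tested). The cytoplasmic actins went the other way, from 70.1 ± 0.935% to 17.0 ± 0.821%. The smooth muscle actins held 29.1 ± 0.912% of the pool at D0 and between 11.7% and 12.4% in the D5 libraries, nearly all of it *Acta2* in myotubes. *Acta1* alone took 58.3 ± 0.634% of the myotube pool and *Actc1* 12.6 ± 0.808%. The summed level of the 6 actins was lower in myotubes, at 18677 ± 360 TPM at D0 and 11932 ± 297 TPM at D5 (n = 3 each), or 63.9% of the myoblast level. As CPM, without division by length, the sum at D5 was 52.0% of that at D0, and it was 32.4% as unscaled counts and 35.3% per ERCC count.

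**Figure D2:**
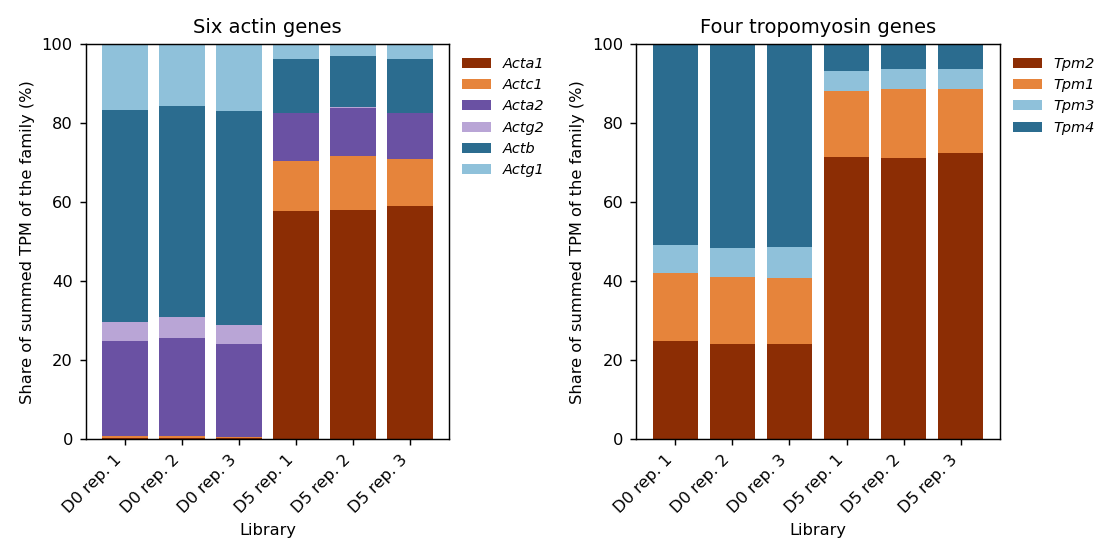
Share (%) of each gene in the summed TPM of the 6 actins (left) and of the 4 tropomyosins (right), stacked for each of the 3 D0 and 3 D5 libraries, with each bar reaching 100. The brown and orange segments of *Acta1* and *Actc1* together grow from under 1% to about 71.0% of the actin pool, and *Tpm2* (brown, right) grows from 24.4% to 71.7% of the tropomyosin pool.

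*Tpm2* (ENSMUSG00000028464.16, chromosome 4 from 43514711 to 43523765, minus strand), the gene of beta-tropomyosin, showed the largest rise among the tropomyosins. It had 26375, 28089 and 27063 counts at D0 and 77429, 74149 and 76967 counts at D5. Each D5 library lay above each D0 library by a wide margin. The level rose 4.49-fold, from 681 ± 19.7 CPM to 3062 ± 46.1 CPM (n = 3 each, log2 fold change 2.17, standard error 0.034, edgeR adjusted p = 1.0e-30). By TPM it moved from rank 146 to rank 22.

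*Tpm1* (ENSMUSG00000032366.15, chromosome 9 from 67022590 to 67049406, minus strand), the gene of alpha-tropomyosin, had 39919, 43728 and 42026 counts at D0 and 40067, 40352 and 38596 at D5. The counts of the groups overlapped, and the D5 libraries held fewer counts in all. After TMM scaling all D5 libraries lay above all D0 libraries, with 1050 ± 13.8 CPM at D0 and 1595 ± 43.0 CPM at D5 (n = 3 each), a 1.52-fold rise (log2 fold change 0.60, standard error 0.032, edgeR adjusted p = 7.3e-17), whereas without any scaling its log2 fold change was -0.08 and with ERCC scaling 0.05, neither past the threshold. Relative to the median of all genes, its log2 fold change was 0.60 without scaling and 0.63 with ERCC scaling. The log2 ratio of *Tpm2* to *Tpm1* was 0.53 ± 0.023 at D0 and 2.10 ± 0.060 at D5 (n = 3 each), a difference of 1.57 (exact permutation p = 0.1).

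*Tpm3* (ENSMUSG00000027940.18, chromosome 3 from 90072649 to 90100902, plus strand), whose muscle product belongs to slow fibres, had 15991, 17601 and 18071 counts at D0 and 11608, 11035 and 10942 at D5. In CPM the libraries read 427, 419 and 449 at D0 and 462, 448 and 440 at D5, so the groups overlapped. The log2 fold change was 0.06 (standard error 0.033, 95% interval from -0.01 to 0.13, edgeR adjusted p = 0.095). The test did not call *Tpm3*, but its direction turned to -0.02 with total counts alone, -0.50 with ERCC scaling and -0.62 with no scaling, and only the last was past the threshold. It was past the threshold as higher when D0 replicate 3 was left out (log2 fold change 0.08, adjusted p = 0.043) or D5 replicate 3 was left out (0.08, adjusted p = 0.0496), and the adjusted p over all alternatives ran from 8.7e-21 to 0.86.

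*Tpm4* (ENSMUSG00000031799.9, chromosome 8 from 72134975 to 72153142, plus strand), the cytoskeletal tropomyosin gene, had 40609, 45535 and 43670 counts at D0 and 5587, 5074 and 5157 at D5. The D0 libraries were nearly equal after scaling. The level fell from 1084 ± 0.717 CPM to 212 ± 9.17 CPM (n = 3 each), which is 5.12-fold lower (log2 fold change -2.35, standard error 0.035, edgeR adjusted p = 2.3e-31). Against *Tpm3* it went from 6.94-fold above in TPM at D0 to 1.30-fold above at D5, a difference of -2.42 in the log2 ratio (exact permutation p = 0.1). With the length of the longest transcript in place of exonic length, *Tpm4* stood above *Tpm3* at D0 (1388 against 495 TPM) and below it at D5 (247 against 470 TPM). All 5 within-library ratios tested, which also include *Acta2* to *Acta1* (difference -8.82), had this p and an adjusted p of 0.1. Exons of *Tpm4* overlap an antisense gene, *Gm26586*, over 6.08% of their length, and 15.7% of its 50-base stretches occur in another gene, as do 23.2% of those of *Tpm3* and none of *Tpm1* and *Tpm2*.

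The leading gene of the tropomyosin pool was *Tpm4* in myoblasts and *Tpm2* in myotubes. *Tpm4* made up 51.3 ± 0.466% of the summed TPM of the 4 genes at D0 and 6.55 ± 0.228% at D5, and *Tpm2* 24.4 ± 0.490% at D0 and 71.7 ± 0.646% at D5 (n = 3 each). The share of *Tpm1* was 16.9 ± 0.083% at D0 and 16.7 ± 0.558% at D5, and that of *Tpm3* was 7.39 ± 0.264% and 5.03 ± 0.104%. With the length of the longest transcript the shares at D0 and D5 were 37.2% and 4.43% for *Tpm4*, 22.9% and 62.6% for *Tpm2*, 26.6% and 24.5% for *Tpm1*, and 13.3% and 8.43% for *Tpm3*. The sum of the 4 genes was higher in myotubes, at 3316 ± 36.8 TPM at D0 and 4554 ± 135 TPM at D5 (n = 3 each), a ratio of 1.37. As unscaled counts the ratio was 1.02, and per ERCC count 1.11 with the D5 libraries on both sides of the D0 libraries, so the direction of the sum rests on the scaling. The counts are summed over all products of a gene, and the annotation lists 21 transcripts of *Tpm1*, 6 of *Tpm2*, 16 of *Tpm3* and 2 of *Tpm4*. Muscle and cytoskeletal products of 1 gene were therefore not separated.

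Ordered by TPM in myoblasts, *Actb* (10021 ± 277 TPM) stood above *Acta2* (4499 ± 77.8), *Actg1* (3076 ± 156), *Tpm4* (1701 ± 26.6), *Actg2* (942 ± 15.6), *Tpm2* (810 ± 13.2), *Tpm1* (560 ± 4.07), *Tpm3* (245 ± 11.5), *Actc1* (90.3 ± 0.916) and *Acta1* (48.6 ± 5.06, n = 3 each). Every library of a gene lay above every library of the next. The order at D5 began with *Acta1* (6962 ± 209 TPM) and *Tpm2* (3264 ± 103), followed by *Actb* (1602 ± 36.1), *Actc1* (1510 ± 117) and *Acta2* (1428 ± 69.5), whose library ranges overlapped between neighbours. Below them, without overlap, came *Tpm1* (762 ± 22.4), *Actg1* (423 ± 44.3), *Tpm4* (298 ± 19.0), *Tpm3* (229 ± 9.98) and *Actg2* (8.33 ± 0.925). The last gene at D0 was thus the first at D5. The order depends on the length used: with the longest transcript of each gene, *Tpm1* (990 ± 7.97 TPM) stood above *Actg2* (867 ± 13.3) and *Tpm2* (854 ± 14.9) at D0. At D5 the same length placed *Tpm1* (1368 ± 38.1 TPM) above *Actc1* and *Acta2*, and *Tpm3* (470 ± 19.1) above *Actg1* and *Tpm4*.

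**Figure D3:**
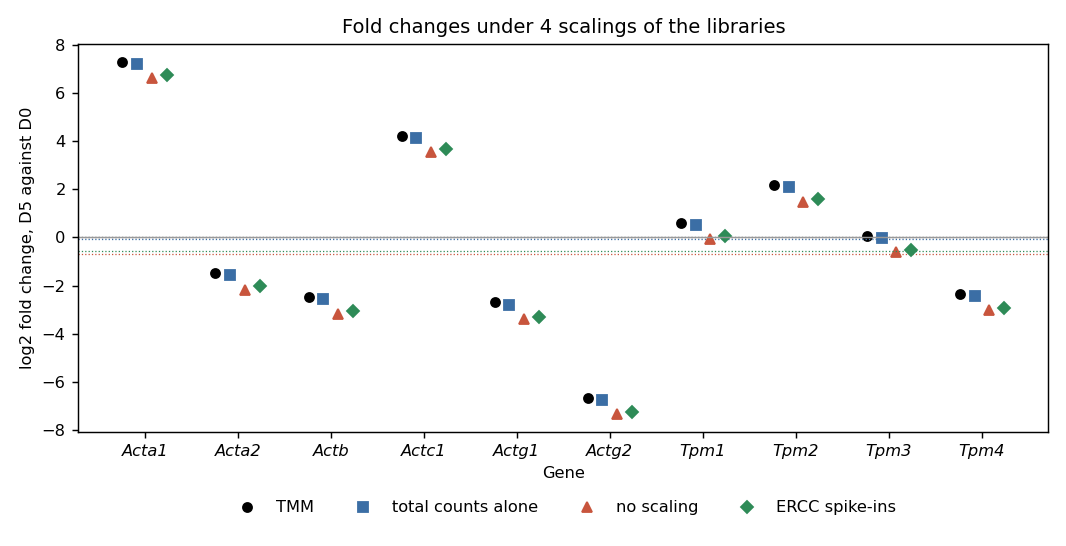
Log2 fold change at D5 against D0 of the 10 genes by edgeR with TMM (black circles), total counts alone (blue squares), no scaling (red triangles) and ERCC spike-ins (green diamonds), where dotted lines give the median of all genes under each. The points of a gene move down together with the median, to -0.68 with no scaling and -0.58 with ERCC scaling, and only those of *Tpm1* and *Tpm3* cross 0.

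Other genes were compared in 8 lists, which hold actin partners and regulators, other actin-like genes and markers of other cell types. Of 30 thin filament partners tested, such as troponins, nebulin and tropomodulins, 27 rose and 2 fell at D5 (90.0% and 6.67%, against 42.2% and 40.8% of all genes tested), with a median log2 fold change of 2.21 against 0.00 over all genes tested. With ERCC scaling 18 rose and 1 fell, and with no scaling 21 rose and 5 fell. Of all 16290 genes tested, 1813 rose and 3747 fell with ERCC scaling, and 3353 rose and 10953 fell with no scaling. The counts of the lists below under these 2 scalings stand against these numbers. *Neb*, the giant protein that spans the thin filament, rose from 9.70 ± 0.810 to 4699 ± 156 CPM. *Tnnc2*, the fast troponin C, rose from 0.168 ± 0.039 to 754 ± 92.8 CPM, and *Tnni1*, the slow troponin I, from 1.26 ± 0.217 to 1709 ± 101 CPM. *Capza1*, a subunit of the capping protein, fell from 86.2 ± 1.62 to 53.9 ± 2.06 CPM (n = 3 each). The adjusted p-values of these 4 genes in edgeR's test ran from 1.8e-40 to 5.1e-16.

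Genes for actin monomer binding and filament turnover divided between both directions, with 11 of 23 higher and 12 lower (47.8% and 52.2%, against 42.2% and 40.8% of all genes), which became 6 and 14 with no scaling and 2 and 10 with ERCC scaling. *Cfl1*, the non-muscle cofilin that severs filaments, fell from 1398 ± 22.7 to 305 ± 0.396 CPM. *Cfl2*, the muscle cofilin, chosen after its values were seen, rose from 262 ± 5.78 to 524 ± 3.93 CPM, a log2 fold change of 1.00 that with ERCC scaling was 0.43 and not past the threshold. *Cap1*, also chosen after its values were seen, fell from 370 ± 4.59 to 151 ± 2.31 CPM, and its muscle counterpart *Cap2* rose from 0.303 ± 0.068 to 184 ± 4.22 CPM. *Coro1c*, a coronin, fell from 335 ± 4.54 to 57.7 ± 0.528 CPM. *Tmsb10*, a thymosin that binds actin monomers, rose from 1124 ± 81.9 to 1694 ± 138 CPM (n = 3 each), but its log2 fold change of 0.59 was -0.09 with no scaling and 0.00 with ERCC scaling, neither past the threshold.

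Of 25 actin nucleators and their activators tested, 17 fell and 7 rose (68.0% and 28.0%, against 40.8% and 42.2% of all genes), with a median log2 fold change of -0.36. *Diaph3*, a formin of dividing cells, fell from 169 ± 2.21 to 9.11 ± 1.07 CPM and *Actr3*, a core subunit of the Arp2/3 complex, from 460 ± 3.28 to 189 ± 7.69 CPM. The formins *Fmnl1* and *Daam2* rose, from 0.419 ± 0.168 to 16.5 ± 1.34 CPM and from 4.78 ± 0.321 to 167 ± 3.63 CPM. Among 16 genes of actin folding and end processing, 10 fell and 3 rose (62.5% and 18.8%, against 40.8% and 42.2% of all genes), with log2 fold changes between -0.88 and 0.88. The chaperonin subunit *Cct2* fell from 498 ± 10.4 to 292 ± 14.1 CPM, *Pdcl3* from 127 ± 5.71 to 74.5 ± 2.17 CPM and *Pfdn4* from 23.0 ± 0.869 to 12.5 ± 0.342 CPM, whereas the prefoldin subunit *Pfdn5* rose from 73.6 ± 4.15 to 136 ± 5.46 CPM (n = 3 each), which was not past the threshold with ERCC scaling. With ERCC scaling the nucleators had 8 calls lower and 3 higher and the folding genes 3 lower and none of 16 higher.

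SRF and the MRTF coactivators are the known link from free actin monomers to actin gene transcription. Of 12 such regulators tested, 7 fell and 4 rose (58.3% and 33.3%, against 40.8% and 42.2% of all genes), which became 8 and 2 with no scaling and 5 and 1 with ERCC scaling. *Srf* itself, chosen after its values were seen, fell from 107 ± 1.66 to 42.7 ± 2.16 CPM. *Mkl1*, which encodes MRTF-A, fell from 158 ± 3.35 to 60.3 ± 1.06 CPM and *Fhl2* from 123 ± 3.28 to 40.4 ± 1.03 CPM. *Abra*, a muscle activator of this pathway, rose from 0.125 ± 0.018 to 50.3 ± 1.61 CPM. *Rock2*, the kinase upstream, had 403 ± 4.17 and 391 ± 6.66 CPM (n = 3 each) and was not called (adjusted p = 0.19 from edgeR's test). Among 8 other actin-like genes tested, 2 rose and 2 fell (25.0% each, against 42.2% and 40.8% of all genes) and 4 were not called. All 8 fell with no scaling, where 10953 of all 16290 genes fell. With ERCC scaling 2 fell and none rose, against 3747 and 1813 of all 16290 genes. The list of other actin-like genes also held *Tpm3-rs7*, which shares sequence with *Tpm3* and had a log2 fold change of -1.33. *Actl6a*, a subunit of chromatin remodelling complexes, fell from 76.5 ± 1.59 to 34.4 ± 2.10 CPM. *Actr8*, a subunit of the INO80 complex, rose from 43.4 ± 0.703 to 49.6 ± 0.437 CPM and the dynactin gene *Actr10* from 73.9 ± 1.85 to 84.2 ± 4.27 CPM, while *Actr1a*, also of dynactin, had 165 ± 3.74 and 158 ± 2.64 CPM and was not called.

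**Figure D4:**
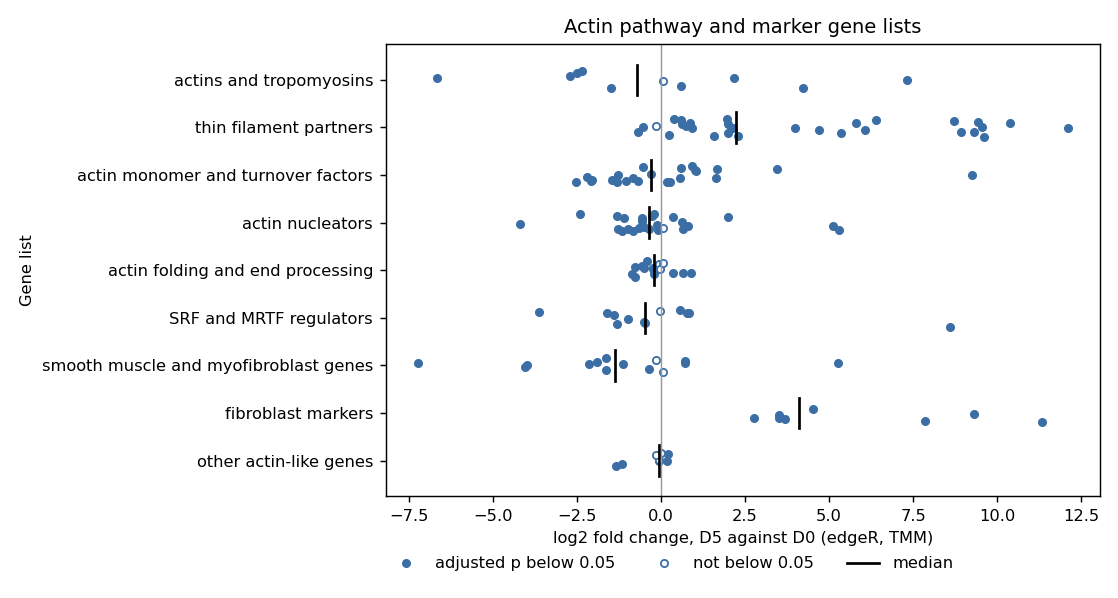
Log2 fold change at D5 against D0 (edgeR with TMM) of each gene tested in 9 lists, by list, with filled points for an adjusted p below 0.05, open points for the others and a black line at the median. Thin filament partners (median 2.21) and fibroblast markers (4.11) lie to the right of 0 and smooth muscle and myofibroblast genes (-1.38) to the left.

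Markers of other cell types also changed, in a direction that differed by list. Of 14 smooth muscle and myofibroblast genes tested, 9 fell and 3 rose (64.3% and 21.4%, against 40.8% and 42.2% of all genes), and the summed level of the 15 listed ranged from 7962 to 8023 CPM at D0 and from 5674 to 5744 CPM at D5. With no scaling 11 fell and 1 rose, and with ERCC scaling 8 fell and 1 rose. *Cnn1*, the smooth muscle calponin, fell from 155 ± 3.26 to 1.03 ± 0.250 CPM and *Tagln2*, a transgelin, from 524 ± 3.93 to 31.9 ± 1.02 CPM. *Des*, the desmin gene also active in skeletal muscle, rose from 2014 ± 54.5 to 3316 ± 15.6 CPM, although with no scaling and with ERCC scaling its change was not past the threshold. *Mylk* rose from 1.05 ± 0.220 to 40.3 ± 2.11 CPM (n = 3 each). *Myh11*, the defining smooth muscle myosin, was near 0 in both groups, with from 2 to 8 counts in a library, and was not among the genes tested. The part of myofibroblast-like cells in the fall of *Acta2* and *Actg2* was not tested.

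Of 10 fibroblast markers, 8 could be tested and all 8 rose (against 42.2% of all genes), and the summed level of the 10 ranged from 671 to 690 CPM at D0 and from 5495 to 5660 CPM at D5. *Col3a1* rose from 547 ± 12.4 to 3730 ± 79.5 CPM and *Dcn* from 0.375 ± 0.105 to 242 ± 19.1 CPM. *Dpt* rose from 0.082 ± 0.033 to 20.1 ± 2.67 CPM (n = 3 each), and *Lum* had 0 counts in each D0 library and 301, 209 and 235 counts in the D5 libraries. *Tcf21* was at 0 in all 6 libraries, and *Thy1* had 1 count in 1 D0 library and 0 in the others. *Acta2*, which also marks activated fibroblasts, fell while these markers rose. Their part in the results was not tested.

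The genes with the most similar levels were found by the root mean square difference of log2(TPM + 1) over the 6 libraries, as a description. Nearest to *Acta1* was *Myl1*, a fast myosin light chain, at 0.45, with 45.5 TPM at D0 and 4511 TPM at D5, and the next was *Tnnt3*, the fast troponin T. Nearest to *Actc1* were *Cdkn1a* (0.23), the inhibitor of the cell cycle, and *Tnnt1* (0.28), the slow troponin T. *Tpm4* lay nearest to *Cfl1* (0.12), with 1699 TPM at D0 and 333 TPM at D5, and *Flna* (0.20), the actin crosslinker filamin A. *Actg1* lay nearest to *Ptma* (0.21) and *Hist1h4h*, and *Actg2* nearest to the histone genes *Hist1h3g* (0.50) and *Hist1h2bk* (0.55). *Fn1* and *Vim* were nearest to both *Acta2* (0.39 and 0.42) and *Actb*, but for *Actb* the differences of 0.95 and 1.09 were the largest of any gene here. *Tpm1* lay nearest to *Cox4i1* (0.08), *Tpm2* to *Scd2* (0.50) and *Tpm3* to *Hspa4* (0.06).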

How the data were processed

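Total RNA of 3 D0 and 3 D5 C2C12 samples was sequenced, and the groups were taken from the sample titles. The authors aligned reads to GRCm38 (mm10), counted them per gene with featureCounts and deposited raw read counts, without normalization, 1 table per library. The labels name Tophat2 2.0.0 and NGS-QC-Toolkit 2.3.3, and the paper's methods name HISAT2 and FastQC. The tools behind these counts are thus not settled. The annotation release, read length, strand setting and treatment of multiple matches are not given in the sources used here, so overlapping, antisense and near-identical genes may share reads.

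The 92 ERCC spike-in entries, and 1 unnamed entry per table equal to the column total, entered neither library sizes nor tests. From the deposited counts, TMM factors, CPM, log2 fold changes and quasi-likelihood p-values came from edgeR 4.0.16 (R 4.3.3) following filterByExpr, with Benjamini-Hochberg adjustment across 16290 genes. The standard error was taken as the size of the log2 fold change over the root of F. TPM used the exonic length of GENCODE vM21 on GRCm38, matched by Ensembl identifier without version for 99.9% of 54525 gene entries. Ratios within a library were compared by two-sided exact permutation tests. Stretches of 50 bases shared between transcripts were counted. Replicates were 3 samples a group, and neither the sample titles nor the paper states whether they were separately grown cultures. The p-values measure the spread between these samples, with information on spread shared across genes by edgeR. Every pair differed by more than sampling noise (chi-square between 2.16 and 3.45 per degree of freedom). The edgeR code was tested on simulated counts, with fewer and smaller changes than in these data.

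The 10 genes and the 9 lists were chosen with earlier results of these data known. In each list up to 4 genes are named, by the largest called rise and fall among genes averaging 100 counts or more in 1 group, the highest level and the next largest change, together with the 2 genes nearest to each member in log2(TPM + 1). *Myog*, *Cfl2*, *Cap1*, *Srf*, *Myh11*, *Tcf21* and *Thy1* were named outside this rule. Alternatives were DESeq2 1.42.0, upper-quartile, total-count, ERCC and no scaling, no low-count filter, a minimum of 10 counts in all libraries, fits without each library, a replicate block, pseudogene counts added to their parent gene, library sizes without the 10 genes, and 2 other treatments of length.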

Additional observations from a re-analysis of the deposited data

Results flagged for a closer look

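Counts were also listed for 5 genes or pseudogenes that are no member of either family but share sequence with one. *Tpm3-rs7* was counted above among the other actin-like genes. *Gm12715* and *Gm8399* were added to *Actg1* in the alternative with pseudogene counts added. The others were used in no comparison above. *Gm12715*, a processed pseudogene with 90.2% of its 50-base stretches in *Actg1*, had 972, 881 and 1014 counts at D0 (mean 956) and 68, 70 and 62 at D5, or 1.01% and 0.739% of the counts of *Actg1*, with a log2 fold change of -3.16. *Gm8399*, with 63.4% of its stretches in *Actg1*, had a mean of 88.3 counts at D0 and 5.33 at D5. *Gm16385*, with 28.0% in *Actg1*, had a mean of 6.33 counts at D0 and 1.33 at D5. *Tpm3-rs7*, with 69.4% of its stretches in *Tpm3*, had a mean of 94.0 counts at D0 and 23.3 at D5, a log2 fold change of -1.33, whereas *Tpm3* itself was not called. *Gm7809*, with 36.2% in *Tpm4*, had a mean of 478 counts at D0 and 64.3 at D5, with a log2 fold change of -2.21. They are listed here because they lie above the limit of 3 counts in every D0 library, a limit that covers counting error only. Whether they are reads of the parent genes was not tested.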

How the results depend on the processing

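*Acta1*, *Acta2*, *Actb*, *Actc1*, *Actg1*, *Actg2*, *Tpm2* and *Tpm4* kept their direction and their side of the threshold in all 16 alternative fits. *Tpm1* had a log2 fold change of -0.079 with no scaling (adjusted p = 0.25) and 0.052 with ERCC scaling (adjusted p = 0.95) in edgeR's test. *Tpm3* had -0.024 with total counts alone, -0.62 with no scaling and -0.50 with ERCC scaling, and was past the threshold without D0 replicate 3 or D5 replicate 3 (0.077 and 0.080). The median of all genes was -0.68 with no scaling, where 3353 genes were higher and 10953 lower (76.6% of calls lower), and -0.58 with ERCC scaling, with 1813 higher and 3747 lower (67.4%), against 6869, 6641 and 49.2% as reported. The spike-in share of the D5 libraries ranged from 0.720% to 2.09%. With ERCC scaling the list genes had 38 calls higher and 41 lower. Counts of calls per list moved by over 1.5 times as follows. With no scaling, turnover factors had 6 higher, nucleators 3, folding genes 1, SRF regulators 2, smooth muscle genes 1 and other actin-like genes 0, with 5 thin filament partners and 8 other actin-like genes lower. With ERCC scaling the counts higher were 18 for thin filament partners, 2, 3, 0, 1, 1 and 0 for the same 6 lists, and the counts lower were 1 for thin filament partners, 8 for nucleators and 3 for folding genes. Other actin-like genes lower numbered 4 with upper-quartile scaling and 5 with total counts, which also gave 3 thin filament partners lower. The share of striated muscle actins was 0.474% at D0 and 60.5% at D5 with counts not divided by length, and 0.622% and 67.5% with the longest transcript.

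D0 and D5 share replicate numbers that mark no common source in the labels. Deviations of same-numbered libraries correlated at 0.033, 0.064 and 0.028, and those of differently numbered libraries between -0.044 and 0.010. Each library thus correlated best with its own number. With 3 libraries a group, such small correlations cannot decide whether the numbers pair the libraries. With the replicate block, 4 of the 10 genes were higher and 5 lower, as without it, and 6894 and 6664 of all genes.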
